A study of Homo sapiens with 6 samples.

Results

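The cytosolic and mitochondrial heat shock proteins, their co-chaperones and the CCT chaperonin are followed here in 1CT, a line of immortalized epithelial cells from human colon, and in 1CT-A, its APC depleted version. The 44 genes are chosen by name, with counts added up where a file lists the symbol more than once, and all 44 are found among the 24462 different symbols of the files. There are 3 libraries of HCEC 1CT_WT cells and 3 of APC KD cells, all from untreated cells that share one medium with EGF, hydrocortisone, insulin, transferrin, selenite and serum. APC, encoding the scaffold of the β-catenin destruction complex, is depleted in 1CT-A, and the labels name no vector control or clone for either line. The libraries are 3′ end libraries (QuantSeq), which prime on the poly(A) tail, and the values are reads counted per gene symbol.

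Molecular chaperones hold unfolded proteins in solution and help them to fold. HSP70 proteins bind short hydrophobic stretches, J-domain proteins deliver clients and start the ATP cycle, and HSP110 and BAG proteins release the nucleotide. HSP90 finishes kinases and steroid receptors with a series of co-chaperones, and the CCT chaperonin, a double ring of 8 different subunits, encloses actin and tubulin during folding. Heat shock factor HSF1 switches on the inducible members under proteotoxic stress, and small heat shock proteins hold aggregating clients without using ATP.

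The libraries hold 7788679 to 8452258 counts in 1CT and 11158108 to 12602988 in 1CT-A. Levels are given as CPM, the usual depth scaled count, taken over all counts of the library, and the limit of 3 counts taken as visible is 0.355 to 0.385 CPM in 1CT libraries and 0.238 to 0.269 CPM in those of 1CT-A. APC has 417, 363 and 363 counts in 1CT, and 1CT-A, whose libraries are deeper, has 351, 342 and 433 counts, which is 43.8 to 49.3 CPM against 30.0 to 34.4 CPM, or -0.58 on the log2 scale (SE, the standard error, 0.09, edgeR adjusted p = 0.00018). Of the epithelial markers, EPCAM and VIL1 have 0 counts in all 6 libraries and CDX2 at most 1 count, while the keratin gene KRT18 is at 9.94 to 13.2 CPM in 1CT libraries and 3.23 to 7.02 CPM in those of 1CT-A, and KRT19 has 20, 27 and 34 counts in 1CT and 0 in 1CT-A. VIM is at 1626 to 2030 CPM and COL1A1 at 1233 to 2099 CPM. The 8 epithelial markers together reach 13.4 to 17.4 CPM in 1CT libraries and 3.23 to 7.20 CPM in those of 1CT-A, and the 9 fibroblast and muscle markers 4374 to 5460 CPM and 4152 to 4461 CPM. Of these 9, 8 are tested, COL3A1 (2.37 on the log2 scale) and DCN (0.30) are higher in 1CT-A, and VIM (-0.20), COL1A1 (-0.59), PDGFRB (-0.98) and ACTA2 (-1.32) are lower. Endothelial markers add up to at most 0.514 CPM and CD68 is the leukocyte marker with counts above the limit, at 8.49 to 14.3 CPM. The proliferation markers MKI67, TOP2A, PCNA and MCM2 are all higher in 1CT-A, together at 2214 to 2309 CPM against 1131 to 1297 CPM. In a bulk library a change in the cells present and a change in RNA per cell cannot be told apart, and the part of these markers in the results below was not tested.

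Of the 44 genes, 43 pass the filter on low counts, and HSPB7 fails it with 1, 3 and 4 counts in 1CT and 0, 1 and 0 in 1CT-A. The lines are compared by edgeR's quasi-likelihood test (1CT-A against 1CT) with Benjamini-Hochberg adjustment over all 12514 genes tested, and a gene is called at an adjusted p under 0.05. Of the 43 tested members, 26 are higher in 1CT-A and 6 are lower, that is 60.5% and 14.0% of them, beside 25.0% higher and 26.0% lower among all genes tested (51.0% called in either direction, against 32 or 74.4% of the members). Where the mean level reaches 10 CPM, 26 of 39 members (66.7%) are higher and 4 (10.3%) lower, beside 31.4% and 23.4% of 8224 genes. The median log2 fold change of the tested members is 0.33, and that of all genes tested is -0.01. CRYAB and HSPA12A passed the filter on low counts through their counts in 1CT, so they could be tested in large part because they differ. The rises are moderate, with a largest log2 fold change of 0.77 in BAG2, and the falls reach -5.22 in CRYAB. At a fold change of at least 2 with an unadjusted p under 0.01, the thresholds of the study's methods, 0 members are higher and 2 are lower, beside 13.4% of all genes in either direction. The CPM ranges of 1CT and 1CT-A are separate in 29 members with 1CT-A above and in 7 with 1CT-A below, beside 31.8% and 27.9% of all genes tested (59.7% in either direction).

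**Figure D1:**
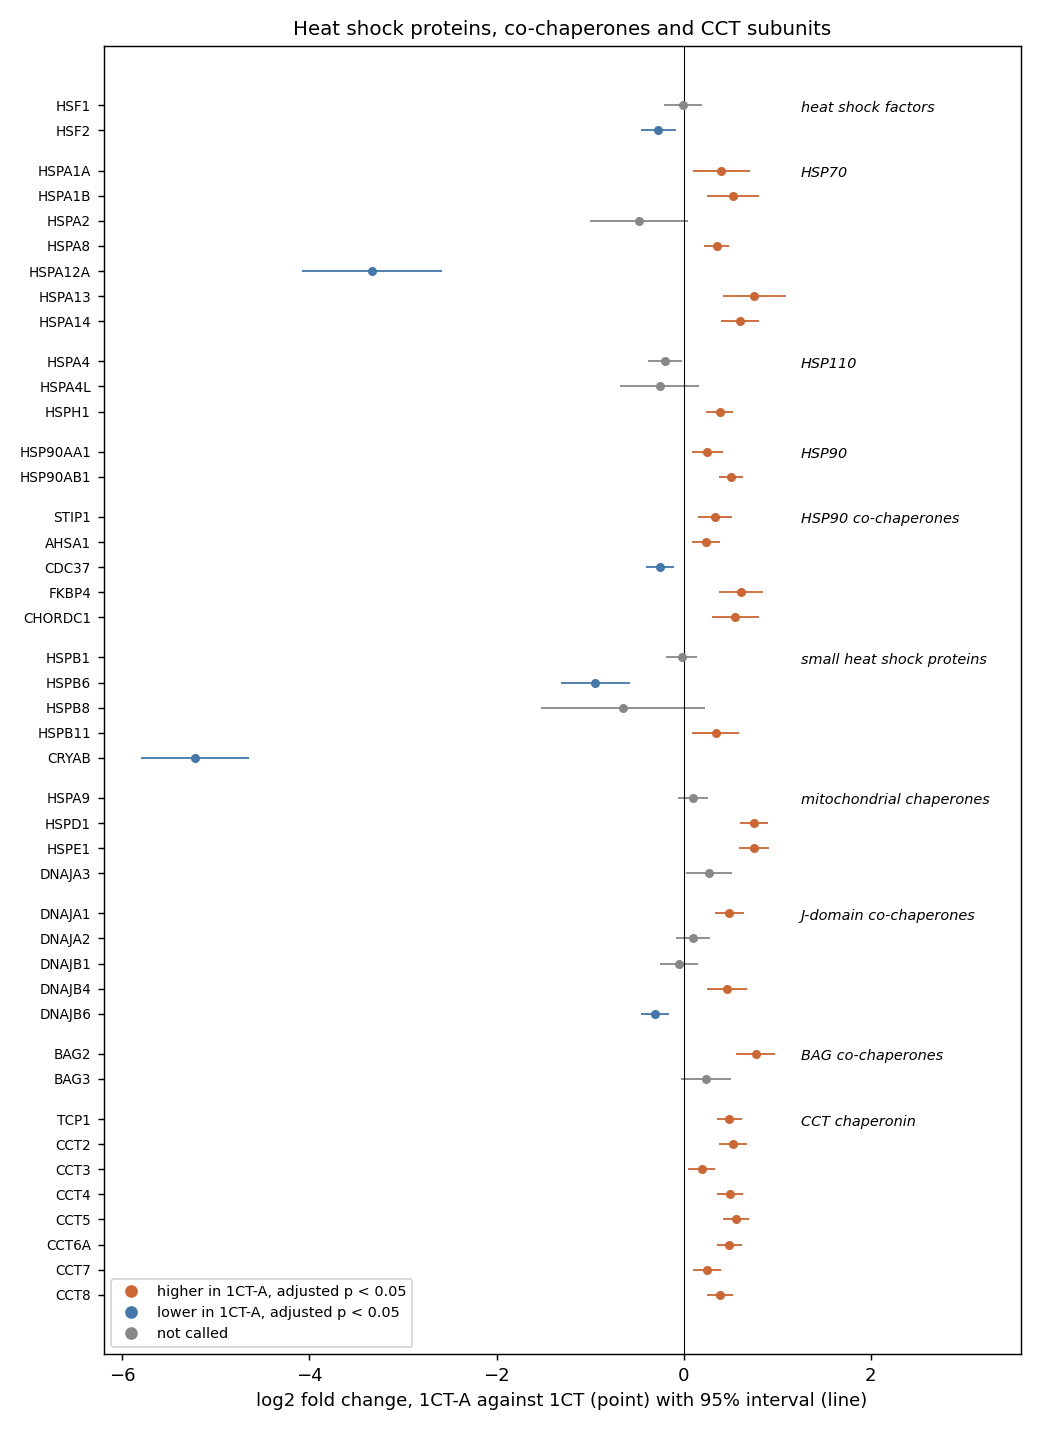
Log2 fold changes between 1CT-A and 1CT (x axis, positive where 1CT-A is higher) for the 43 tested members (y axis, grouped by role), with points for the edgeR estimate, lines for its 95% interval and colors for the call. The CCT subunits and HSP90 genes lie to the right of 0 in a narrow band, from 0.19 to 0.56, and CRYAB and HSPA12A lie far to the left at -5.22 and -3.34.

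Heat shock elements are the DNA sites of the HSF proteins, made of inverted nGAAn units, and the promoters that hold the motif searched are shown because HSF1 is the known activator of heat shock genes. RefSeq promoter windows on GRCh38.p14, from 250 bases before to 50 bases after a gene start, are found for 38 of the 44 members and are searched on both strands for GAANNTTCNNGAA, of which the other strand reads TTCNNGAANNTTC. The motif is found for 7 members (CHORDC1, DNAJA1, DNAJB6, HSP90AA1, HSP90AB1, HSPA8 and HSPD1), and for 0.608% of the 27305 symbols with a window. Of the 7 members, 6 are higher in 1CT-A and DNAJB6 is lower. Of the 31 members with a window but without the motif, 16 are higher and 4 lower. Among all genes tested 25.0% are higher and 26.0% lower, and a link between motif and call was not tested. A match describes letters only, and a window without it may hold elements spelled otherwise or placed elsewhere. The files' build is hg19 according to the submitters' processing notes, so these GRCh38.p14 positions describe the annotation and not the counting. The 250 bases before the start are printed 5′ to 3′ on the strand of the gene, with the motif in capitals, for the members with the motif upstream of the start. They are HSPD1 (chr2:197499841-197500090, minus strand), HSPA8 (chr11:123062137-123062386, minus strand), HSP90AB1 (chr6:44247693-44247942, plus strand), HSP90AA1 (chr14:102087045-102087294, minus strand), CHORDC1 (chr11:90223050-90223299, minus strand) and DNAJB6 (chr7:157336754-157337003, plus strand).
HSPD1: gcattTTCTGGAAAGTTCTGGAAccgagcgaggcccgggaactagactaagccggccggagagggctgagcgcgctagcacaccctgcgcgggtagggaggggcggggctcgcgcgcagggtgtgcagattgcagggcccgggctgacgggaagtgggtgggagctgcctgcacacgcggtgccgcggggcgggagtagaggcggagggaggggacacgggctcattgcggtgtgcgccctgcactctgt
HSPA8: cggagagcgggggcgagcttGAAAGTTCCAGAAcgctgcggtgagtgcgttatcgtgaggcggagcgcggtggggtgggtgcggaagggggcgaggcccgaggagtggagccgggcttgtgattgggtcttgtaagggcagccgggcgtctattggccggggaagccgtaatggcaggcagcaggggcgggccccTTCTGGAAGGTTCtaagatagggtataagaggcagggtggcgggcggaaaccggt
HSP90AB1: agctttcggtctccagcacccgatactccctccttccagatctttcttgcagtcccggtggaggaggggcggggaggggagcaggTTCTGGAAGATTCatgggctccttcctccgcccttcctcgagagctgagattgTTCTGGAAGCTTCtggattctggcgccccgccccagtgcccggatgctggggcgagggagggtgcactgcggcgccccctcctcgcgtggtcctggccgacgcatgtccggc
HSP90AA1: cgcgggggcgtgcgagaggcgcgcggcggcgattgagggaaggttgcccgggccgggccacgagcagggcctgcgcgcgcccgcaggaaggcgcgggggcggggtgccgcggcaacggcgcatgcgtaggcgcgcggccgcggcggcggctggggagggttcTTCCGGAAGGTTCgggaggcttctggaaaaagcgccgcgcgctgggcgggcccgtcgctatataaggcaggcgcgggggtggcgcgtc
CHORDC1: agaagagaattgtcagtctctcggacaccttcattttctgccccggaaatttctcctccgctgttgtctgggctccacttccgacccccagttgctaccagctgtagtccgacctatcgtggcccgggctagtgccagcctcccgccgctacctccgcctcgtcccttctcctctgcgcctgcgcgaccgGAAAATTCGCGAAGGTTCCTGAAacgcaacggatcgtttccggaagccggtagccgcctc
DNAJB6: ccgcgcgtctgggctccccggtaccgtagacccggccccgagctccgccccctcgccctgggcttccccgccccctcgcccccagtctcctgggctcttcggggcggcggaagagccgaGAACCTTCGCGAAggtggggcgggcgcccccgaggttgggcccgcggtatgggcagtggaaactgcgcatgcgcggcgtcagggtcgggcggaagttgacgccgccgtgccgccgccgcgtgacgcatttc
HSPD1 and CHORDC1 hold overlapping matches that form 1 run each, with 2 and 3 matches, and HSPA8 and HSP90AB1 hold 2 separate matches. In DNAJA1 the match lies after the start and is not printed.

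The RNA of the heat shock factors is not called higher in 1CT-A, and the activity of the proteins was not measured. HSF1, the main activator of the heat shock genes, is at 60.8, 54.2 and 65.9 CPM in the 1CT libraries and at 60.6, 65.7 and 58.6 CPM in the 1CT-A libraries. The ranges overlap, and the log2 fold change is -0.01 with a 95% interval from -0.21 to 0.19 (edgeR adjusted p = 0.946). The last exon of HSF1 overlaps DGAT1 on the opposite strand, and strand use in counting is not given in the sources used here. HSF2, a second factor that forms mixed trimers with HSF1, is at 74.8, 71.2 and 83.2 CPM in 1CT and lower at 65.6, 67.1 and 62.4 CPM in 1CT-A. Each 1CT-A library lies below each 1CT library, with a log2 fold change of -0.27 (SE 0.09, edgeR adjusted p = 0.018), and the call is lost without 1CT-A replicate 3 (-0.23, edgeR adjusted p = 0.0926) and in a linear model per gene on log2(CPM + 1) (-0.23, 0.0756).

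All 8 subunits of the CCT chaperonin are higher in 1CT-A, beside 25.0% of all genes tested. TCP1, the first subunit, is at 370.0, 393 and 362 CPM in 1CT and at 541, 536 and 542 CPM in 1CT-A, a log2 fold change of 0.49 (SE 0.06, edgeR adjusted p = 2.8e-05). The 1CT-A libraries are nearly identical to each other and lie well above those of 1CT. CCT5 has the largest rise of the ring, from 332, 342 and 302 CPM to 492, 483 and 501 CPM (0.56, SE 0.07, edgeR adjusted p = 1.4e-05). CCT2 follows, from 166, 157 and 143 CPM to 227, 230.0 and 232 CPM (0.53, SE 0.07, edgeR adjusted p = 4.6e-05). In both genes the lowest 1CT library is replicate 3 and the groups are widely separated.

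CCT4 is at 327, 309.7 and 289.5 CPM in 1CT and at 437, 460.4 and 443 CPM in 1CT-A, a log2 fold change of 0.49 (SE 0.07). CCT6A is at 285, 291 and 283 CPM in 1CT and at 421, 405 and 412 CPM in 1CT-A, also 0.49 (SE 0.06). CCT8 moves from 317, 315 and 299 CPM to 399.5, 436 and 417 CPM, a log2 fold change of 0.39 (SE 0.06, edgeR adjusted p = 0.00022). In these subunits no library of one line reaches the other. The smallest rises are in CCT7 and CCT3, which sit in the same ring as the others. CCT7 is at 465, 452 and 508 CPM in 1CT and at 597, 579 and 566 CPM in 1CT-A (0.25, SE 0.07, edgeR adjusted p = 0.00872). CCT3 is at 226, 216 and 212 CPM in 1CT and at 257, 245 and 266 CPM in 1CT-A (0.19, SE 0.07, edgeR adjusted p = 0.0294). The call of CCT3 is lost without 1CT replicate 2 (0.19, edgeR adjusted p = 0.0693), without 1CT-A replicate 1 (0.19, 0.0766), without 1CT-A replicate 3 (0.17, 0.123), with upper quartile scaling (0.14, 0.115) and when the replicate numbers form a block (0.19, 0.0614).

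The summed CCT level is 2399 to 2488 CPM in 1CT libraries and 3372 to 3379 CPM in those of 1CT-A, a ratio of the means of 1.38. Within the sum, CCT3 takes 8.74 to 9.10% of the counts in 1CT and 7.26 to 7.88% in 1CT-A, and CCT7 takes 18.3 to 21.2% and 16.7 to 17.7%. CCT5 moves the other way, from 12.6 to 13.8% in 1CT to 14.3 to 14.8% in 1CT-A, and the shares of TCP1, CCT2 and CCT6A are also higher in 1CT-A. These shares do not overlap between the lines (two-sided exact permutation test, p = 0.1 for each, which 3 libraries against 3 cannot go below, and 0.157 after adjustment over the 11 shares tested). For TCP1 the lines nearly touch, with a highest 1CT share of 15.8867% and a lowest 1CT-A share of 15.8872%. For CCT8 the share is 12.5 to 12.7% in 1CT and 11.8 to 12.9% in 1CT-A, and the values overlap, as they do for CCT4. Shares of one sum depend on each other, so lower shares of some subunits raise those of the rest. The shares of a subunit are compared between libraries only, since counts of 3′ end libraries depend on each gene's poly(A) sites. The last exons of TCP1, CCT4 and CCT5 overlap annotated genes on the opposite strand, ACAT2 in the case of TCP1.

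**Figure D2:**
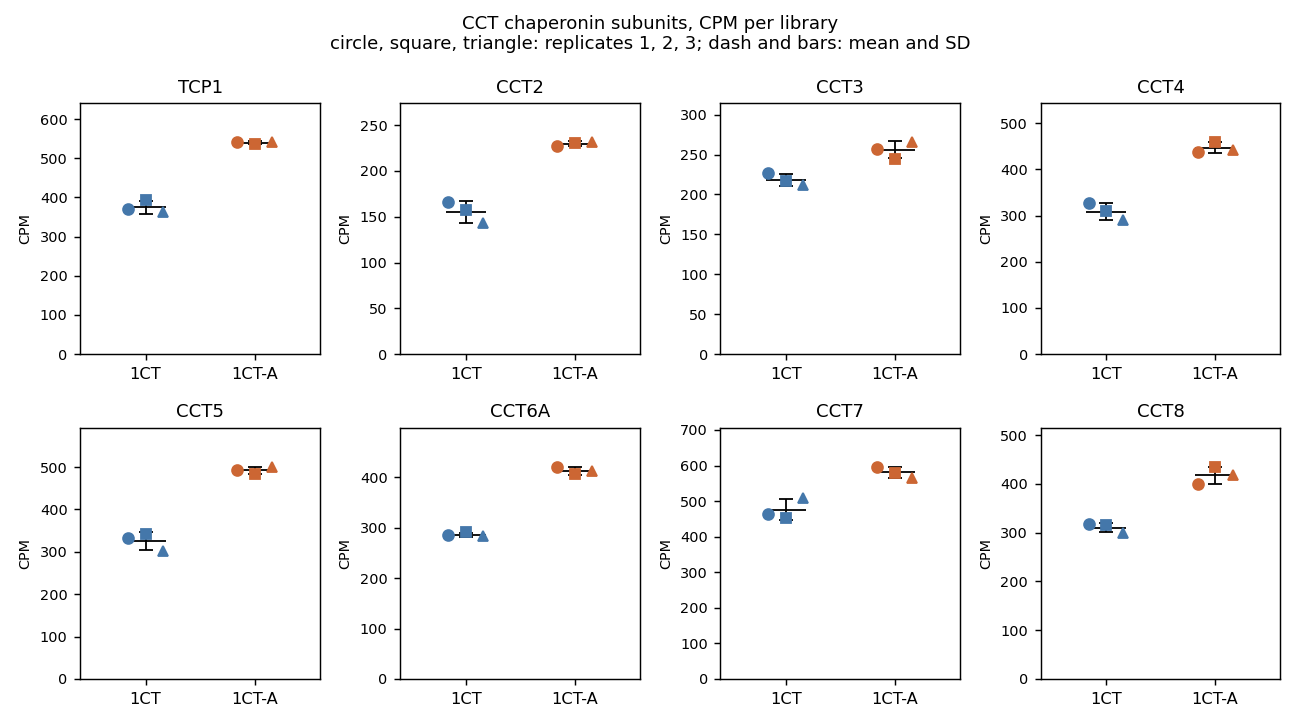
CPM (y axis, from 0) of the 8 CCT subunits in each library of 1CT and 1CT-A, with symbols for replicates 1 to 3 and dashes and bars for the mean and SD. In each panel all 1CT-A libraries lie above all 1CT libraries, with the smallest gap in CCT3 (212 to 226 CPM against 245 to 266 CPM).

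Both HSP90 genes of the cytosol are higher in 1CT-A. HSP90AB1, the constitutive form, is at 2837, 2724 and 2661 CPM in 1CT and at 4081, 3805 and 4111 CPM in 1CT-A, a log2 fold change of 0.51 (SE 0.06, edgeR adjusted p = 1.7e-05). HSP90AA1, the inducible form, is at 2208, 2170.1 and 2443 CPM in 1CT and at 3014, 2637 and 2699.6 CPM in 1CT-A, a log2 fold change of 0.25 (SE 0.08, edgeR adjusted p = 0.0129). The groups do not overlap for either gene, but the nearest libraries of HSP90AA1 are 2443 and 2637 CPM. Its call is lost without 1CT replicate 1 (0.23, edgeR adjusted p = 0.0509), without 1CT-A replicate 1 (0.19, 0.0719), with upper quartile scaling (0.20, 0.0534) and in the linear model per gene (0.29, 0.0537). HSP90AA1 takes 43.8 to 47.9% of the counts of the pair in 1CT and 39.6 to 42.5% in 1CT-A (exact permutation test, two-sided, p = 0.1, and 0.157 adjusted).

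The co-chaperones of HSP90 follow for the most part. FKBP4, a peptidyl-prolyl isomerase of steroid receptor complexes, has the largest change, from 42.4, 33.8 and 44.3 CPM to 67.6, 60.6 and 60.8 CPM (0.61, SE 0.11, edgeR adjusted p = 0.0004). The last exon of FKBP4 overlaps ITFG2-AS1 on the opposite strand. CHORDC1 (0.55), STIP1, which bridges HSP70 and HSP90 (0.33), and AHSA1, which stimulates the ATPase of HSP90 (0.24), are also higher, with edgeR adjusted p values of 0.00155, 0.00449 and 0.011. CDC37, the adaptor that brings kinases to HSP90, is lower, from 837, 815 and 937 CPM to 748, 735 and 745 CPM. Its log2 fold change is -0.26 (SE 0.07, edgeR adjusted p = 0.00822), and no 1CT-A library reaches the range of 1CT. The call is lost in a linear model per gene on log2(CPM + 1), the kind of test in the study's methods (-0.21, adjusted p = 0.0616).

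Of the HSP70 genes outside mitochondria, 5 of 7 are higher and 1 is lower, beside 25.0% higher and 26.0% lower among all genes tested. HSPA8, the constitutive HSP70 of the cytosol, is at 839.5, 832 and 775 CPM in 1CT and at 1076, 1061 and 1068 CPM in 1CT-A (0.35, SE 0.06, edgeR adjusted p = 0.00031). The stress-inducible HSPA1A is at 35.6, 40.8 and 24.1 CPM in 1CT and at 41.9, 48.4 and 46.4 CPM in 1CT-A (0.40, SE 0.14, edgeR adjusted p = 0.0301). Its neighbor HSPA1B, which encodes the same protein, is at 17.7, 20.6 and 13.9 CPM in 1CT and at 25.3, 25.8 and 26.3 CPM in 1CT-A (0.53, SE 0.13, edgeR adjusted p = 0.00426). The highest 1CT library of HSPA1A, 40.8 CPM, nearly touches the lowest 1CT-A library, and replicate 3 is the lowest 1CT library for both genes. Without 1CT replicate 3 the log2 fold change of HSPA1A is 0.23 (edgeR adjusted p = 0.0477) and that of HSPA1B is 0.40 (0.00731). The call of HSPA1A is lost without 1CT-A replicate 2 (0.37, edgeR adjusted p = 0.098) or without 1CT-A replicate 3 (0.40, 0.0749). In the linear model per gene neither HSPA1A (0.46, adjusted p = 0.183) nor HSPA1B (0.56, 0.0586) is called.

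Because HSPA1A and HSPA1B differ little in their coding sequence, their 3′ ends matter for these libraries. In GENCODE release 44 transcripts, none of the 251 different stretches of 50 bases in the last 300 bases of either gene occurs in a transcript of another gene. Copies under the same symbol are not seen by this check, and each file enters HSPA1A and HSPA1B 5 times each. An annotated gene without a symbol overlaps the last exon of HSPA1B. The sum of both genes is 53.4, 61.5 and 38.0 CPM in 1CT and 67.2, 74.3 and 72.8 CPM in 1CT-A. HSPA1A takes 63.5 to 66.7% of the sum in 1CT and 62.4 to 65.2% in 1CT-A, and the ranges overlap (exact permutation test, two-sided, p = 0.3). With 3 libraries against 3 this test cannot show that the ratio of the pair is constant. The same check finds shared stretches for 4 of the 43 matched members, which are HSPB1 (36.3% of stretches, with HSPB1P1 and HSPB1P2), HSPE1 (21.1%, with its pseudogenes), CCT8 (2.79%) and HSPA8 (1.59%), so reads of these genes could have been divided in counting.

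HSPA13, a microsomal HSP70 relative, is at 8.52, 8.93 and 6.03 CPM in 1CT and at 13.8, 13.9 and 13.2 CPM in 1CT-A (0.75, SE 0.16, edgeR adjusted p = 0.00134). HSPA14, which works at the ribosome, is higher by a log2 fold change of 0.60 (SE 0.09). HSPA12A, a distant relative of HSP70, goes the other way, from 34, 31 and 27 counts in 1CT to 3, 6 and 4 counts in 1CT-A. As CPM this is 4.02, 3.74 and 3.47 against 0.269, 0.527 and 0.317, with a log2 fold change of -3.34 (SE 0.35, edgeR adjusted p = 4.8e-06). By summed counts HSPA12A is 10.1-fold lower, with a 95% exact interval from 5.65 to 19.8 that covers counting error only. The levels of HSPA12A are low and its last exon overlaps HSPA12A-AS1 on the opposite strand. HSPA2 is at 7.34, 13.5 and 9.24 CPM in 1CT and at 5.11, 9.39 and 7.62 CPM in 1CT-A and is not called (-0.48, edgeR adjusted p = 0.114), but it is called lower without 1CT replicate 1 (-0.67, 0.038), with the replicate block (-0.48, 0.0326) and without a filter (-0.44, 0.0393).

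Among the HSP110 exchange factors, HSPH1 is higher, from 176, 179 and 183 CPM to 248, 231 and 241 CPM (0.38, SE 0.07, edgeR adjusted p = 0.00041). Its relatives HSPA4 and HSPA4L are not called, with log2 fold changes of -0.20 (95% interval from -0.39 to -0.02, edgeR adjusted p = 0.0619) and -0.26 (from -0.68 to 0.16, 0.292). HSPA4 is at 138 to 168 CPM in 1CT and at 130.1 to 137 CPM in 1CT-A, and it is called lower without 1CT replicate 2 (-0.27, edgeR adjusted p = 0.0264), with upper quartile scaling (-0.26, 0.0251) and with at least 10 counts in every library (-0.22, 0.0453). BAG2 is at 27.2, 23.9 and 22.9 CPM in 1CT and at 41.0, 45.8 and 42.8 CPM in 1CT-A (0.77, SE 0.10, edgeR adjusted p = 2.5e-05), the largest rise of the members tested. The BAG2 libraries of the lines are far apart, and its last exon overlaps RAB23 on the opposite strand. BAG3, an HSF1 target and partner of HSPB8, is not called, with a log2 fold change of 0.24 (SE 0.12, 95% interval from -0.03 to 0.51, edgeR adjusted p = 0.128). It is called higher when no filter on low counts is used (0.28, edgeR adjusted p = 0.00239), where its SE is smaller at 0.08.

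The J-domain proteins of cytosol and nucleus are divided. DNAJA1, a farnesylated partner of HSPA8, is at 85.4, 89.3 and 82.9 CPM in 1CT and at 123, 124 and 123 CPM in 1CT-A (0.49, SE 0.07, edgeR adjusted p = 8.3e-05). DNAJB4 is also higher (0.47, SE 0.10), and DNAJB6, which holds back polyglutamine aggregates, is lower, at 229 to 255 CPM against 192 to 206 CPM in 1CT-A (-0.31, SE 0.07, edgeR adjusted p = 0.00234). DNAJA2 is not called (0.10, 95% interval from -0.08 to 0.28). DNAJB1, the heat-inducible partner of HSP70, is at 261, 258 and 317 CPM in 1CT and at 286, 292 and 251 CPM in 1CT-A, and the values overlap (-0.05, 95% interval from -0.25 to 0.15, edgeR adjusted p = 0.664).

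The mitochondrial pair HSPD1 and HSPE1, encoding HSP60 and its lid HSP10, rises in step. HSPD1 is at 503, 461 and 430.4 CPM in 1CT and at 819, 783 and 815 CPM in 1CT-A (0.76, SE 0.07, edgeR adjusted p = 1.5e-06). HSPE1 is at 125, 115 and 109.5 CPM in 1CT and at 201, 196 and 209 CPM in 1CT-A (0.75, SE 0.07, edgeR adjusted p = 2.7e-06). For both genes the lowest 1CT-A library is far above the highest 1CT library. HSPD1 takes 79.7 to 80.1% of the counts of the pair in 1CT and 79.6 to 80.3% in 1CT-A (exact permutation test, two-sided, p = 1), so the ratio of the pair differs by less than its spread between libraries. The genes lie head to head on chromosome 2, with the start of HSPE1 539 bases from the start of HSPD1 used for the window above, and the first base of the printed motif run lies 294 bases from the start of HSPE1. A combined transcript annotated as HSPE1-MOB4, looked at after its values were seen, has 149, 142 and 72 counts in 1CT and 396, 450 and 471 counts in 1CT-A, so reads near HSPE1 could have been divided with it.

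The other mitochondrial members are not called. HSPA9, the mitochondrial HSP70, is at 113 to 122 CPM in 1CT and at 127 to 136 CPM in 1CT-A (0.10, 95% interval from -0.06 to 0.26, edgeR adjusted p = 0.274). DNAJA3, its J-domain partner, is at 16.7 to 19.2 CPM and 19.9 to 23.2 CPM (0.27, 95% interval from 0.02 to 0.52, edgeR adjusted p = 0.0636). It is called higher without 1CT-A replicate 1 (0.34, edgeR adjusted p = 0.048), with library size only (0.31, 0.0403) and without a filter (0.32, 0.0436).

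The small heat shock proteins hold the largest fall of the members tested. CRYAB, encoding αB-crystallin, a holdase of muscle and lens that also guards intermediate filaments, has 142, 140 and 158 counts in 1CT and 2, 8 and 7 counts in 1CT-A. This is 16.8, 16.9 and 20.3 CPM against 0.179, 0.702 and 0.555 CPM, with a log2 fold change of -5.22 (SE 0.27, edgeR adjusted p = 8.7e-09). By summed counts CRYAB is 37.1-fold lower, with a 95% exact interval from 22.9 to 64.3 for counting error only. HSPB2, which is not one of the 44 genes and stands head to head with CRYAB in the human genome, has 44, 25 and 45 counts in 1CT and 1, 6 and 3 counts in 1CT-A. By summed counts HSPB2 is 16.3-fold lower, with a 95% exact interval from 8.57 to 35.0 for counting error only. Like CRYAB, HSPB2 passed the filter on low counts through its counts in 1CT. Both genes of this divergent pair are thus close to the limit of 3 counts in 1CT-A.

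**Figure D3:**
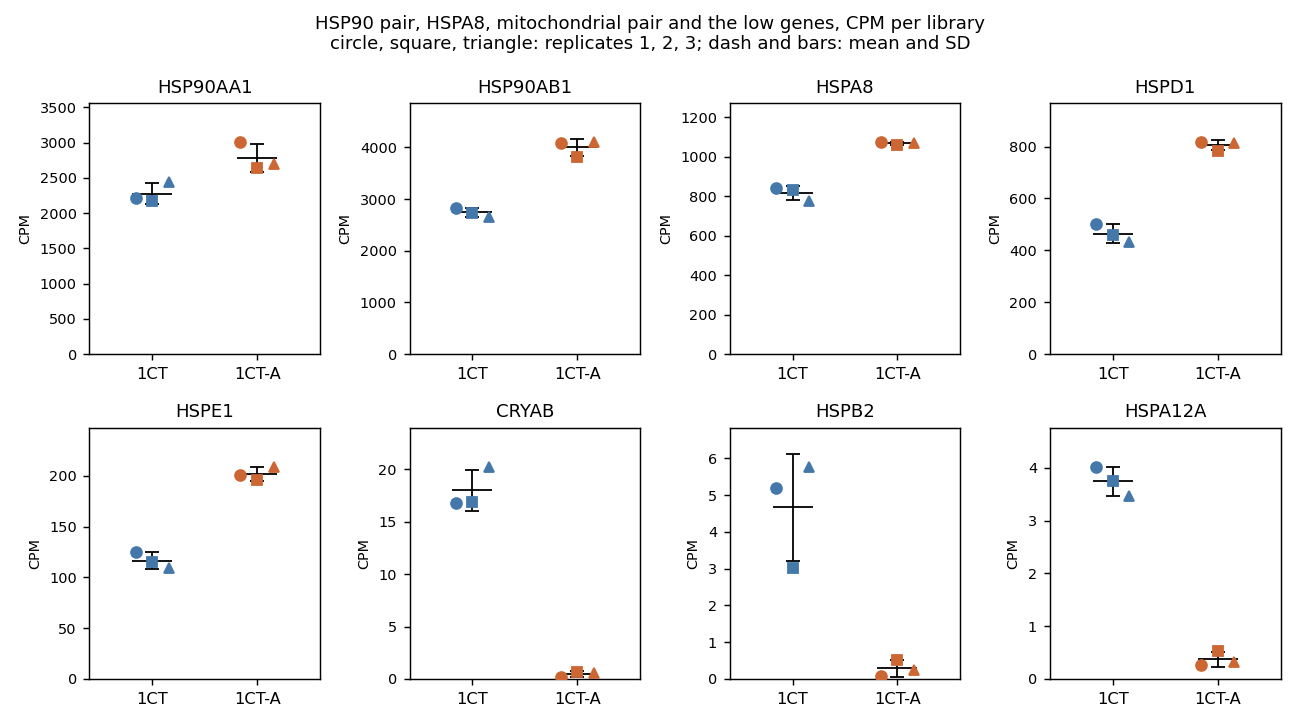
CPM (y axis, from 0) of 8 genes in each library of 1CT and 1CT-A, with symbols for replicates 1 to 3 and dashes and bars for the mean and SD. HSPD1 and HSPE1 rise from 430.4 to 503 CPM to 783 to 819 CPM and from 109.5 to 125 CPM to 196 to 209 CPM, while CRYAB, HSPB2 and HSPA12A lie under 1 CPM in all 1CT-A libraries.

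HSPB6, a small heat shock protein of muscle and other tissues, is lower as well, from 12.7, 11.8 and 15.9 CPM to 7.89, 7.72 and 5.95 CPM (-0.95, SE 0.17, edgeR adjusted p = 0.00049). A gene on the opposite strand overlaps its last exon. HSPB11, which despite its name is a subunit of the intraflagellar transport complex, is higher (0.34, SE 0.12, edgeR adjusted p = 0.0253). Its call is lost without 1CT replicate 1, 1CT replicate 3, 1CT-A replicate 1 or 1CT-A replicate 3 (0.34, 0.27, 0.33 and 0.34, edgeR adjusted p = 0.0585, 0.0618, 0.0684 and 0.0735), with upper quartile scaling (0.29, 0.052), in DESeq2 (0.37, 0.0616) and in the linear model per gene (0.37, 0.0539). HSPB1, or HSP27, is the small heat shock protein with the most counts in these libraries and does not separate the lines, at 617, 580.4 and 664 CPM in 1CT and at 655, 580.1 and 649 CPM in 1CT-A (-0.02, 95% interval from -0.19 to 0.14, edgeR adjusted p = 0.832).

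The 1CT libraries differ from each other in part of the inducible members, and replicate 3 is the lowest in several of them. HSPB8, which forms a complex with BAG3 for selective autophagy, is at 32.1, 17.9 and 5.26 CPM in 1CT and at 8.96, 16.1 and 11.4 CPM in 1CT-A. The values overlap widely (-0.65, 95% interval from -1.52 to 0.23, edgeR adjusted p = 0.201). Without 1CT replicate 3 HSPB8 is called lower in 1CT-A (-1.06, edgeR adjusted p = 0.00067), and without 1CT replicate 1 its log2 fold change is 0.02 (0.969). With all libraries and no filter on low counts HSPB8 is also called lower (-0.60, SE 0.14, edgeR adjusted p = 0.000165). With the filter its SE is 0.405 for the same libraries, so the call without a filter reflects their spread less. BAG3 is at 192, 189.6 and 124 CPM in 1CT and at 201, 208 and 201 CPM in 1CT-A, and without 1CT replicate 3 its log2 fold change is 0.07 (edgeR adjusted p = 0.333). In this library HSPB8, HSPA1A, BAG3, HSPA13 and HSPA1B are at 0.211, 0.632, 0.648, 0.691 and 0.722 times the mean of replicates 1 and 2. HSPB6, DNAJB1 and CRYAB are at 1.30, 1.22 and 1.20 times that mean. Replicate 3 is the lowest of the 1CT libraries for 26 of 43 tested members (60.5%), beside 40.7% of all genes tested, and it has the smallest library. Replicate 1 is the highest for 20 members (46.5%, beside 30.6% of all genes) and the lowest for 4 (9.3%, beside 29.9%). The chi-square per degree of freedom over all genes is 7.06 and 8.42 between replicate 3 and the others, and 3.62 between replicates 1 and 2. Without 1CT replicate 3, 1CT-A has 25 members higher and 7 lower, and all 8 CCT subunits remain higher. In that fit 3252 of all 12846 genes tested are higher and 3299 are lower.

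**Figure D4:**
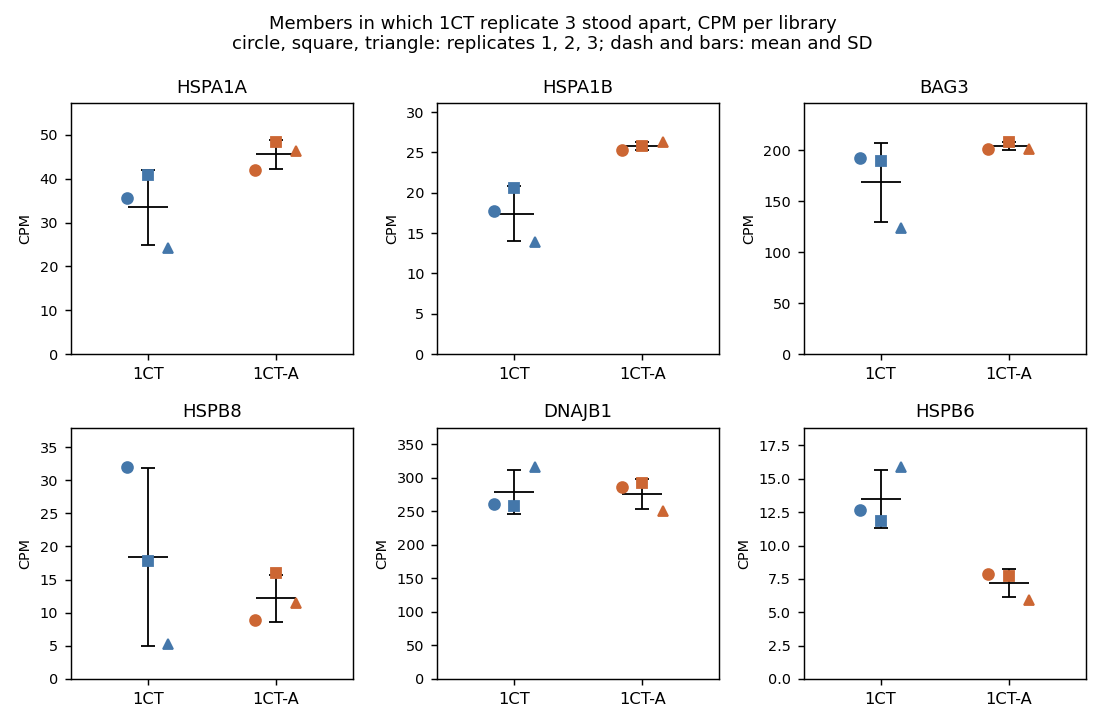
CPM (y axis, from 0) of 6 members in each library of 1CT and 1CT-A, with dashes and bars for the mean and SD. In these members replicate 3 (triangle) is the lowest or the highest 1CT library. The triangle of 1CT is the lowest for HSPA1A, HSPA1B, BAG3 and HSPB8 and the highest for DNAJB1 and HSPB6.

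Genes that work with the members are followed as lists, beside 25.0% higher and 26.0% lower among all genes tested. Of 10 genes of prefoldin, which hands actin and tubulin to CCT, of the phosducin-like and thioredoxin-like regulators of CCT and of the further subunit CCT6B, 3 are higher and 2 are lower, with a median log2 fold change of 0.18. The summed level of these 10 genes is nevertheless lower in 1CT-A, at 1127 to 1160 CPM against 1218 to 1358 CPM in 1CT. PFDN2 rises most, from 101 to 114 CPM to 171 to 182 CPM (0.67, SE 0.07), and of the called genes PFDN5 falls most, from 800.0 to 963 CPM to 617 to 663 CPM (-0.50, SE 0.08). Both are subunits of the same hexamer, in which the measured RNAs therefore change in opposite directions. Of 12 further HSP90 partners, 6 are higher and 1 is lower, with a median of 0.25. FKBP5, an isomerase and glucocorticoid target, rises most (0.79, SE 0.07), from 175 to 201 CPM to 318 to 343 CPM, and UNC45A, a myosin chaperone, falls (-0.35, SE 0.09).

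Of 16 further HSP70 partners, 4 are higher and 2 are lower, with a median of 0.07. DNAJC9, a histone chaperone with a J domain, rises most, from 36.6 to 45.6 CPM to 82.8 to 93.7 CPM (1.08, SE 0.09). DNAJA4 falls most, from 52, 58 and 52 counts in 1CT to 0, 2 and 4 counts in 1CT-A, which is 38.7-fold by summed counts with a 95% exact interval from 17.4 to 107 for counting error only. DNAJA4 too passed the filter through its counts in 1CT. Of 10 further mitochondrial folding genes, 4 are higher and 0 are lower, with a median of 0.27 and the largest rise in the protease LONP1 (0.73, SE 0.09). Of the 13 chaperones of the ER lumen, 7 are higher and 0 are lower, with a median of 0.18. PDIA4, a disulfide isomerase, rises most (0.90, SE 0.12), and HSPA5, the HSP70 of the ER, is higher by 0.17 (SE 0.07, edgeR adjusted p = 0.0427). Of 9 further heat shock regulators and inducible genes, 5 are tested, 0 are higher and 3 are lower. Among the lower genes are HSPB2, described above, and HSF4 (-1.17, SE 0.43, edgeR adjusted p = 0.0369). HSF4 has only 16, 18 and 32 counts in 1CT and 21, 15 and 7 counts in 1CT-A. Its nearest libraries are at 1.89 CPM in 1CT and 1.88 CPM in 1CT-A. HSPA6, a strictly inducible HSP70, has at most 0.527 CPM in any library and is too low to be tested.

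**Figure D5:**
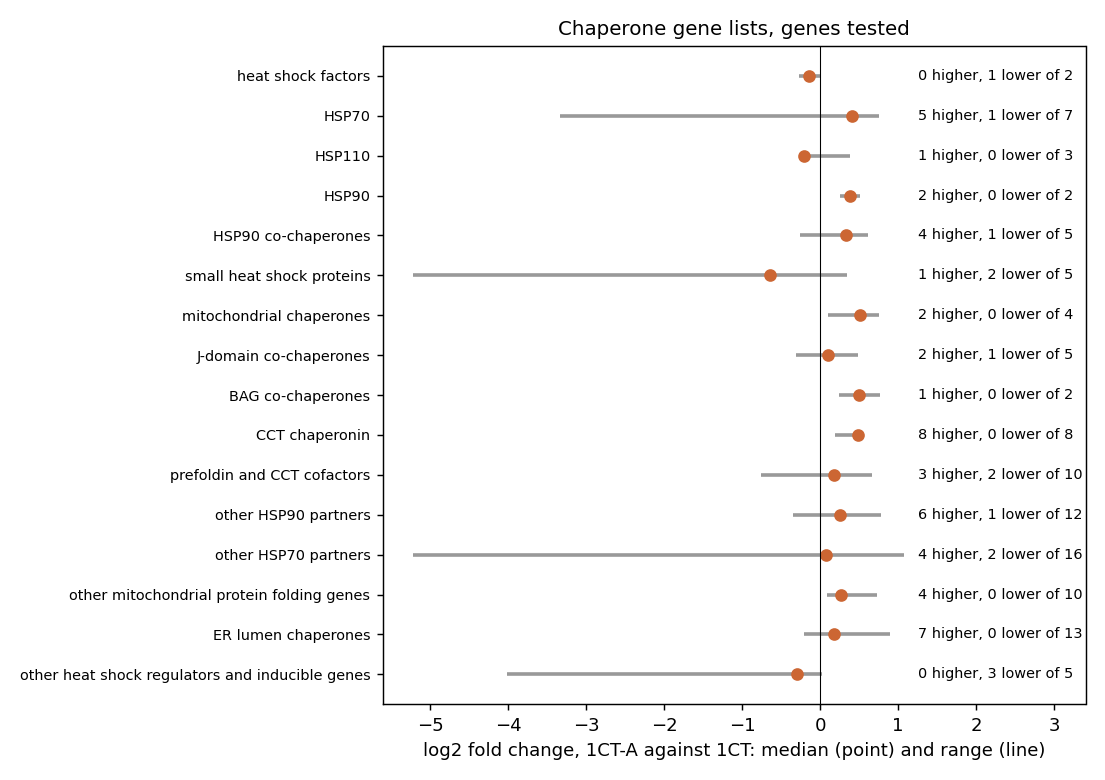
Median (points) and range (lines) of the log2 fold changes between 1CT-A and 1CT (x axis, positive where 1CT-A is higher) over the tested genes of each role group and partner list (y axis), with the number called at an adjusted p under 0.05. The CCT chaperonin is called higher in 8 of 8, and the ranges of the small heat shock proteins, the HSP70 group, the further HSP70 partners and the further heat shock genes reach far to the left through CRYAB, HSPA12A, DNAJA4 and HSPB2.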

How the data were processed

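Bulk 3′ end libraries (QuantSeq) were made from 3 samples of 1CT and 3 of 1CT-A. The authors deposited raw read counts per gene symbol, 1 file per library, and the submitters' processing notes name Bowtie2, edgeR and hg19. The counting tool, the annotation and the use of strand are not given in the sources used here. Each file has 25737 entries for 24462 symbols, and the entries of 286 repeated symbols were summed. HSPA1A and HSPA1B are among them.

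Counts were filtered with filterByExpr (minimum count 10), scaled by TMM (factors 0.976 to 1.02) and tested with edgeR 4.0.16 in R 4.3.3, after a test on simulated data. Alternatives were other scalings and filters, DESeq2 1.42.0, limma 3.58.1 (voom), a linear model per gene on log2(CPM + 1), other thresholds, the replicate number as a block and each library left out. CPM were taken over all counts of a library and are not TMM scaled. The libraries carry no molecular identifiers in the labels, so intervals on counts cover counting error only. The labels do not say that replicates are separate cultures, so p-values measure the spread between these samples, which may be technical. Without a filter 4 members gain a call. The SE falls from 0.405 to 0.14 in HSPB8, 0.12 to 0.08 in BAG3 and 0.24 to 0.18 in HSPA2. In DNAJA3 the SE rises from 0.11 to 0.13. The p-values of HSPB8, BAG3 and HSPA2 without a filter therefore reflect this spread less.

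The members and lists were chosen with earlier results of these data known. All libraries are given for members called with an absolute log2 fold change of at least 1, for the largest change of each role group, for HSF1, HSPA1A, HSPA1B, HSPA8, both HSP90 genes, HSPD1, HSPE1 and the CCT subunits, and of each partner list the called gene that rose most and fell most is named. Other genes given in full (CDC37, HSPA13, HSPA2, HSPB6, HSPB8, HSPB1, BAG3 and DNAJB1) were chosen after their values were seen. Of the partner lists, HSPA5, HSF4 and HSPA6 are named in addition to the called genes that rose or fell most. Same-numbered replicates of the lines have correlated deviations of -0.161, 0.220 and -0.139 over 8224 genes, so the numbers were not taken to pair the libraries. The values of 1 gene of the partner lists are not reported here.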

Additional observations from a re-analysis of the deposited data

How the results depend on the processing

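With 26 members higher, 6 lower and 8 CCT subunits higher as reported, leaving out 1 library at a time gave 23 to 25, 5 to 7 and 7 to 8. Among all genes these fits called 2597 to 3252 higher and 2767 to 3299 lower, of 12560 to 12886 tested. Other scalings, filters, tests and an adjusted p under 0.01 gave 21 to 28 higher, 4 to 8 lower and 7 to 8 CCT subunits. With the replicate number as a block there were 25 higher, 7 lower and 7 CCT subunits, CCT3 being lost and HSPA2 gained, and no other member changed its call. A fold of at least 2 with an unadjusted p under 0.01 left 0 higher, 2 lower and 0 CCT subunits, since the rises are under 2-fold. The members whose direction turned all lie near 0 or rest on 1 library. HSF1 (-0.0084) was at 0.030 with library size only, 0.037 without a filter, 0.014 in DESeq2 and 0.033 in the linear model per gene, and ranged from -0.080 to 0.075 with 1 library left out. HSPB1 (-0.022) was at 0.016, 0.024, 0.00056 and 0.017 under the same settings and ranged from -0.068 to 0.047. HSPB8 ranged from -1.06 to 0.020 and DNAJB1 from -0.11 to 0.067. The cause was not tested. The median of all genes shifted by -0.118 in DESeq2, which tested 19169 genes, and by less than 0.1 otherwise, while all genes split into 3441 higher and 3014 lower with library size only and 2681 and 3661 with upper quartile scaling. Depth limits HSPB7, HSPA6, HSPA12A and CRYAB, whose 1CT-A counts are at most 8 per library.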
